A study of Mus musculus with 12 samples.

Results

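The clustered protocadherin genes of mouse chromosome 18 were covered by 100 of the 88737 probes on the array, chosen by position alone as every non-control probe in the region that holds the Pcdha, Pcdhb and Pcdhg clusters. The first probe began at base 37091756 and the last ended at base 37967176 (build mm9, chromosome 18). Of these, 46 probes lay in the proximal Pcdha region, 2 in the Pcdhb region and 52 in the distal Pcdhg region. Probes separated by no more than 1000 bases were joined into a locus, which gave 16 loci for Pcdha, 2 for Pcdhb and 12 for Pcdhg, numbered here from proximal to distal (alpha-1 to alpha-16, beta-1, beta-2, gamma-1 to gamma-12). Between the last Pcdha and the first Pcdhb probe, 346569 bases held no probe.

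Clustered protocadherins are adhesion proteins of the cell surface that give neurons an identity code. In the Pcdha and Pcdhg clusters, each of a row of large variable exons has a promoter of its own and is spliced to constant exons shared by the whole cluster, whereas each Pcdhb gene is a single exon. Most of these promoters hold a CpG island, and neurons choose among many of them, though not all, at random. DNA methylation of an island is known to oppose its use and the binding of the insulator protein CTCF. The methyltransferase Dnmt3b and the chromatin protein Smchd1 are known to take part in methylating them in the early embryo, so pluripotent cells are a stage at which these islands are of interest. The RefSeq annotation (GRCm38.p6) lists 12 Pcdha genes followed by 2 C-type genes, Pcdhac1 and Pcdhac2, then 22 Pcdhb genes, and then 12 Pcdhga, 7 Pcdhgb and 3 Pcdhgc genes, the last group again being C-type. It places Slc25a2, a mitochondrial carrier gene, and Taf7, a general transcription factor gene, between Pcdhb22 and Pcdhga1. That annotation is on another build than the array, whose files name no gene for a probe, so loci are given by position and not by gene name.

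DNA methylation was measured by MeDIP, the immunoprecipitation of methylated DNA fragments by an antibody that binds 5-methylcytosine. Each of 12 CpG island arrays compared the precipitate (IP, in Cy5) with the DNA before precipitation (input, in Cy3). All 4 lines were embryonic stem (ES) cells with the chromosomes of CC9.3.1, a line from a 129SvEv-Gpi1c(129S6) embryo, and each had been fused with cytoplasts that brought in mtDNA. CC9mus carried Mus musculus mtDNA and was the control for the fusion procedure, and the divergent lines CC9spretus, CC9dunni and CC9pahari carried mtDNA of Mus spretus, Mus terricolor and Mus pahari. All cells were untreated and kept without feeder cells for 48 h, with 3 replicate arrays per line. Each mtDNA type was represented by a single line, so an effect of mtDNA and an effect of the line cannot be told apart. The labels do not say that replicates came from separate cultures, so p-values measure the spread between arrays, which may be technical.

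Values are log2 ratios of IP over input, centred on the median of each array, so that 0 is the typical probe of that array. The ratio also depends on how many CpGs a fragment holds, so a difference between loci is one of ratio and not of the share of methylated molecules. Every CC9mus value rests on arrays that stood apart from each other. Over all probes, the ratios of CC9mus replicate 1 had an SD of 0.53, those of replicates 2 and 3 had SDs of 1.85 and 2.01, and the divergent lines had 1.09 to 1.38. All 3 CC9mus arrays were also scanned in a later period, with replicate 3 of each divergent line, whereas the other 6 arrays belonged to an earlier period. Within the later period the CC9mus arrays had a scan day and slides of their own, so line, scan day and slide cannot be told apart there. The part of array spread and scan period in the results below was not tested as a cause. The IP signal was well above background on all 12 arrays for 58 of the 100 probes, and the input signal for 86. No spot of these probes was marked as an outlier or was saturated.

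Taken as 1 set, the 100 protocadherin probes had a median MeDIP ratio above that of the typical probe on every array. The median over the 100 probes was 0.24, 1.99 and 2.44 on the 3 CC9mus arrays. It was 0.46, 0.40 and 0.93 on the CC9spretus arrays, 0.49, 0.37 and 0.50 on the CC9dunni arrays, and 0.10, 0.20 and 0.57 on the CC9pahari arrays. All 12 medians were above 0, whereas the medians of the 2504 other probes of chromosome 18 lay between −0.09 and 0.00. Of the 100 probes, 40 were above 0 on all 12 arrays, against 22.3% of all probes on the array, and 5 were below 0 on all 12, against 17.6%.

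Ranks within an array do not depend on its spread. The median protocadherin probe stood at the 54.3rd to the 85.5th percentile of all probes of its array. The 3 CC9mus arrays gave percentiles of 68.5, 85.5 and 83.0, and the 9 other arrays 54.3 to 78.1. On this scale CC9mus replicate 1 lay inside the range of the other lines, and replicates 2 and 3 lay above it. In the Pcdha cluster the percentile was 63.9 to 87.4 over the 12 arrays and in the Pcdhg cluster it was 44.9 to 81.3.

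**Figure D1:**
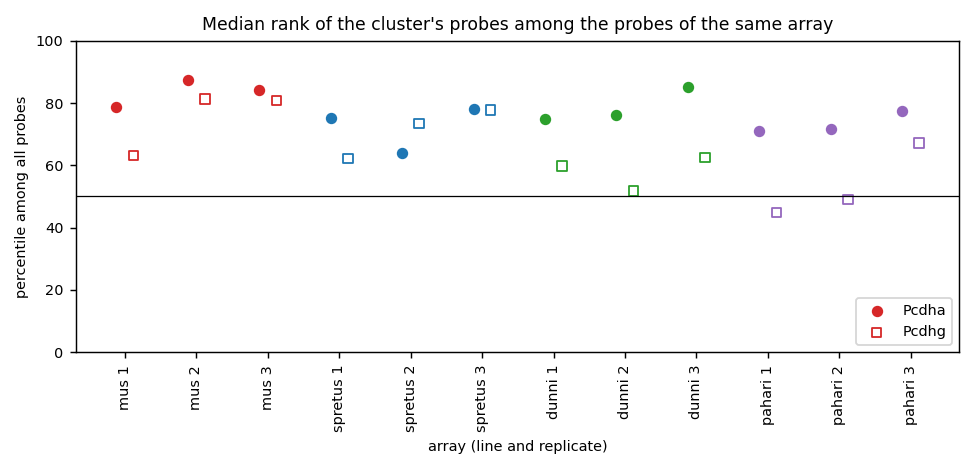
Median percentile, among all probes of the same array, of the 46 Pcdha probes (filled circles) and the 52 Pcdhg probes (open squares) on each of the 12 arrays, coloured by line; the line at 50 is the typical probe. The Pcdha medians sit between 63.9 and 87.4, and only the Pcdhg medians of CC9pahari replicates 1 and 2, at 44.9 and 49.0, fall below the typical probe.

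The ratios of the probes were correlated between arrays. Over the 100 probes, Pearson's r between arrays of the same line was 0.74 to 0.95 with a median of 0.87 over 12 pairs, and between arrays of different lines 0.48 to 0.91 with a median of 0.76 over 54 pairs. These are descriptions across probes, which share fragments and base composition between arrays and are not independent replicates.

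Hypermethylation of a probe means here that its 3 arrays of a line averaged above 2, a threshold borrowed from the study's methods, applied to the centred ratio of a line and without the Z-score filter that the study added. This held for 34 of the 100 probes in CC9mus, 23 in CC9spretus, 17 in CC9dunni and 11 in CC9pahari. Over all 88737 probes the shares were 9.39%, 5.16%, 5.32% and 4.71% in the same order. In every line the share in the protocadherin clusters was thus above the share over the whole array, which is a count with no test. The count for CC9mus was set by 2 arrays, since replicate 1 had 2 protocadherin probes above 2, against 50 and 58 for replicates 2 and 3. Without CC9mus replicate 1 the count was 58 and without replicate 3 it was 19, and only 2 probes were above 2 on all 3 CC9mus arrays, against 0.689% of all probes. With the arrays brought to an equal spread the counts were 14, 28, 29 and 15 in CC9mus, CC9spretus, CC9dunni and CC9pahari, against 3.74%, 5.75%, 7.65% and 5.8% of all probes, so CC9mus went from the highest count to the lowest, as it did over the whole array. With normexp the counts were 7, 5, 3 and 2 in the same order, against 2.32%, 2.77%, 2.13% and 2.17% of all probes. The CC9pahari count was then below its share over the whole array. In the divergent lines 12, 14 and 6 probes were above 2 on all 3 arrays of CC9spretus, CC9dunni and CC9pahari, against 3.86%, 4.06% and 3.57% of all probes.

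Probes hypermethylated in all 4 lines numbered 9 of 100, against 3.58% of all probes, and lay in 7 loci, 4 of them in Pcdha and 3 in Pcdhg. They were the 3 probes of alpha-1 and single probes of alpha-8, alpha-9, alpha-12, gamma-2, gamma-5 and gamma-10. In CC9mus, 15 probes were hypermethylated in no other line, against 4.5% of all probes, a count that rests on replicates 2 and 3. Hypomethylation, a mean ratio below −2, was found at 3 probes in at least 1 line, against 4.47% of all probes. By line it was 1 probe in CC9mus against 3.25% of all probes, and 2 in CC9dunni against 0.586%. In CC9spretus and CC9pahari it was 0, against 1.08% and 0.124%. The 3 probes were 1 of gamma-1 (−2.11 in CC9dunni) and 2 of gamma-12 (−2.31 in CC9mus at one and −2.03 in CC9dunni at the other). Their IP signal was well above background on 3, 4 and 9 of 12 arrays in that order, so the first 2 are poorly measured.

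**Figure D2:**
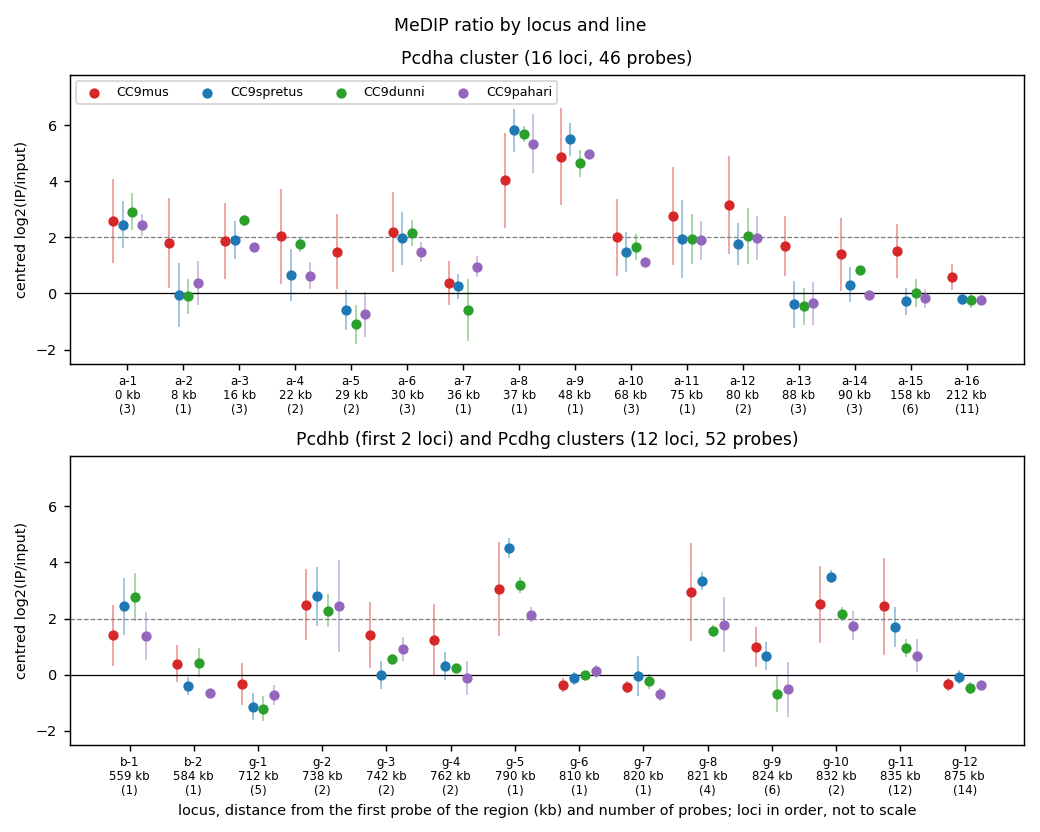
Mean centred log2(IP/input) of each of the 30 loci in each line (points) with the SD over 3 arrays (bars), in order along the chromosome, with the distance of the locus from the first probe in kb and its number of probes in parentheses; a, b and g stand for alpha, beta and gamma, and the broken line marks a ratio of 2. The lines lie close together at alpha-1, alpha-9 and gamma-2, CC9mus lies above the others at alpha-5 and alpha-13, and the last loci of Pcdha and Pcdhg lie near 0.

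Along the Pcdha cluster, 6 of the 16 loci had a mean over the 4 lines above 2, and 2 had one below 0. The 3 highest loci among those of at least 3 probes were alpha-1, alpha-3 and alpha-6. Alpha-1 (chr18:37091756-37091982, 3 probes), the most proximal locus, was at 0.90, 3.15 and 3.73 on the CC9mus arrays, 2.13, 1.83 and 3.41 in CC9spretus, 2.47, 2.61 and 3.67 in CC9dunni and 2.28, 2.15 and 2.89 in CC9pahari. Apart from the low CC9mus replicate 1, the 4 lines overlapped, and CC9mus differed from the others by −0.01 ± 0.55 (SE), or by −2.59 with the scan period block and equal spread. Alpha-3 (chr18:37107648-37107929) had line means of 1.88 ± 1.35, 1.91 ± 0.67, 2.60 ± 0.20 and 1.65 ± 0.16 (SD, n = 3) in CC9mus, CC9spretus, CC9dunni and CC9pahari. Alpha-6 (chr18:37121811-37122004) had means of 2.20 ± 1.42, 1.96 ± 0.94, 2.15 ± 0.46 and 1.48 ± 0.36 (SD, n = 3). At both loci the lines differed by less than the spread of the CC9mus arrays.

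The highest means over the 4 lines were at 2 loci of 1 probe each, alpha-8 (chr18:37128747-37128791) and alpha-9 (chr18:37140119-37140175), which were chosen after their values were seen. Alpha-8 was at 2.08, 4.98 and 5.03 on the CC9mus arrays and at 4.14 to 6.70 on the 9 others. Alpha-9 was at 2.98, 6.35 and 5.31 on the CC9mus arrays and at 4.31 to 6.12 on the 9 others. On the compressed CC9mus replicate 1 they were the highest 2 of the 100 probes, and on replicate 3 single probes of gamma-11 and gamma-8 were higher.

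The lowest Pcdha loci of at least 3 probes were alpha-16, alpha-13 and alpha-15, and at all of them the CC9mus mean was above that of each other line. Alpha-13 (chr18:37179910-37180478, 3 probes) was at 0.59, 2.72 and 1.80 on the CC9mus arrays, and from −1.004 to 0.59 on the 9 others. Alpha-15 (chr18:37249454-37250153, 6 probes) was at 0.38, 2.02 and 2.11 on the CC9mus arrays and from −0.60 to 0.61 on the 9 others. Alpha-16 (chr18:37302999-37304237, 11 probes), the last Pcdha locus, was at 0.10, 0.66 and 1.02 on the CC9mus arrays and from −0.45 to 0.05 on the 9 others. Only at alpha-16 were all 3 CC9mus arrays above all 9 others. At alpha-13 and alpha-15 replicates 2 and 3 of CC9mus were above the others and replicate 1 was not.

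The 2 Pcdhb loci were single probes, so little of that cluster was measured. Beta-1 (chr18:37650807-37650853) was at 0.16, 2.08 and 1.99 on the CC9mus arrays, 1.58 to 3.56 in CC9spretus, 2.27 to 3.76 in CC9dunni and 0.38 to 1.88 in CC9pahari. Beta-2 (chr18:37675506-37675552) lay between −0.72 and 1.04 over the 12 arrays. At both, every CC9dunni array was above every CC9pahari array, and the CC9mus arrays overlapped those of CC9spretus.

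Along the Pcdhg cluster, 4 of the 12 loci had a mean over the 4 lines above 2 and 4 had one below 0. Gamma-1 (chr18:37803549-37804072, 5 probes) was the lowest of all 30, at −0.22, 0.34 and −1.14 on the CC9mus arrays and from −1.59 to −0.30 on the 9 others. The IP signal of 4 of its 5 probes was well above background on at most 3 of 12 arrays, so these low ratios are poorly measured. It stands between the Pcdhb probes and the rest of Pcdhg, where other genes lie in the reference order, and without it the Pcdhg medians of the lines were higher, in CC9dunni from 0.17 to 0.33.

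The highest Pcdhg loci of at least 3 probes were gamma-8, gamma-11 and gamma-9. Gamma-8 (chr18:37912834-37913442, 4 probes) was at 0.97, 3.65 and 4.21 on the CC9mus arrays, 2.96, 3.58 and 3.41 in CC9spretus, 1.31, 1.72 and 1.61 in CC9dunni and 1.11, 1.33 and 2.90 in CC9pahari. Every CC9spretus array was above every CC9dunni and CC9pahari array there. Gamma-9 (chr18:37915240-37915951, 6 probes) was at 0.18, 1.44 and 1.34 in CC9mus, 0.17, 0.68 and 1.15 in CC9spretus, −0.82, −1.24 and 0.01 in CC9dunni and −1.09, −1.11 and 0.61 in CC9pahari. There CC9pahari replicate 3 fell among the CC9spretus arrays. Gamma-11 (chr18:37925832-37928231, 12 probes over 2400 bases) had line means of 2.44 ± 1.73 in CC9mus, 1.69 ± 0.70 in CC9spretus, 0.95 ± 0.33 in CC9dunni and 0.68 ± 0.60 in CC9pahari (SD, n = 3). At the distal end of the cluster, gamma-12 (chr18:37965542-37967176, 14 probes) lay between −0.62 and 0.15 on all 12 arrays.

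In the Pcdhg cluster CC9spretus stood above CC9dunni and CC9pahari at 2 further loci, gamma-5 and gamma-10. On average CC9spretus was below both at gamma-3, with means of 0.00, 0.57 and 0.92, and at gamma-6, with means of −0.13, −0.03 and 0.12. At the single probe of gamma-5 (chr18:37881660-37881706) its arrays were at 4.16 to 4.86, against 1.91 to 3.51 for the 6 arrays of CC9dunni and CC9pahari. At gamma-10 (chr18:37923021-37923608, 2 probes) they were at 3.31 to 3.75 against 1.42 to 2.35. These loci were chosen after their values were seen, and CC9spretus against the mean of the other lines passed the adjusted threshold at no protocadherin locus (limma with Benjamini-Hochberg adjustment over all loci, smallest adjusted p of the 30 loci = 1.0), when 0.00686% of all loci did. Hypermethylated probes of the Pcdhg cluster numbered 19 in CC9mus, 14 in CC9spretus, 5 in CC9dunni and 4 in CC9pahari, of 52. These were 36.5%, 26.9%, 9.62% and 7.69%, against 9.39%, 5.16%, 5.32% and 4.71% of all probes. In the Pcdha cluster they numbered 15, 8, 11 and 7 of 46 in the same order, or 32.6%, 17.4%, 23.9% and 15.2%. The CC9mus counts rest on replicates 2 and 3. Above 2 were 0, 22 and 27 Pcdhg and 2, 27 and 31 Pcdha probes on CC9mus replicates 1, 2 and 3.

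The balance of the clusters differed in size between lines, without a test. The Pcdha median minus the Pcdhg median of the same array was 0.34 ± 0.10 in CC9mus, 0.08 ± 0.30 in CC9spretus, 0.62 ± 0.19 in CC9dunni and 0.55 ± 0.12 in CC9pahari (SD, n = 3). The Pcdha median was the higher on 11 of the 12 arrays, the exception being CC9spretus replicate 2 at −0.18. Without gamma-1 it was the higher on 10 of 12, and the difference was 0.16 ± 0.07 in CC9mus, −0.04 ± 0.28 in CC9spretus, 0.46 ± 0.19 in CC9dunni and 0.51 ± 0.14 in CC9pahari (SD, n = 3). By line, the Pcdha medians were 1.70 ± 1.15, 0.66 ± 0.35, 0.79 ± 0.18 and 0.67 ± 0.22, and the Pcdhg medians 1.36 ± 1.07, 0.58 ± 0.30, 0.17 ± 0.11 and 0.12 ± 0.34, in CC9mus, CC9spretus, CC9dunni and CC9pahari. Over the alternatives tried the Pcdhg medians were 0.71 to 1.96, 0.22 to 0.70, 0.046 to 0.33 and −0.07 to 0.36 in the same order. The SD of CC9mus was larger than its distance from the other lines in Pcdha and about equal to it in Pcdhg.

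**Figure D3:**
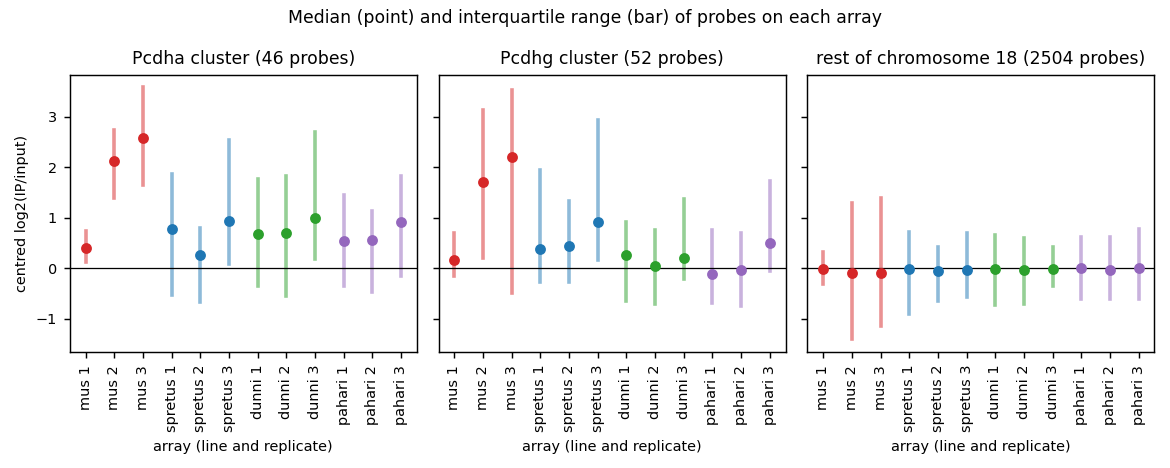
Median (point) and interquartile range (bar) of the centred log2(IP/input) of the 46 Pcdha probes, the 52 Pcdhg probes and the 2504 other probes of chromosome 18 on each array, coloured by line. CC9mus replicates 2 and 3 have the highest cluster medians, CC9mus replicate 1 is compressed, and the rest of the chromosome is centred near 0 on all arrays.

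The comparison of CC9mus with the mean of the 3 divergent lines asked whether cells with the parental mtDNA type differed from those with divergent mtDNA. Tested with limma over all 88737 probes, 11 of the 100 protocadherin probes rose in CC9mus and 1 fell (adjusted p 0.0405 to 0.0491). None passed with the slide as a random block or the scan period as a block. Over the whole array 2.76% of probes were higher and 1.81% lower in CC9mus at the same threshold. At an unadjusted p under 0.05, 33 protocadherin probes were higher and 6 lower, against 14.1% and 14.8% of all probes. The fitted difference was above 0 for 73 of the 100 probes with a median of 0.78, whereas over all probes 46.8% were above 0 with a median of −0.06. That count and median were 57 and 0.15 with equal spread, 60 and 0.30 with the scan period as a block, 39 and −0.34 with that block and equal spread, and 66 to 82 and 0.29 to 1.39 with 1 CC9mus array left out. The mean of the 3 CC9mus array medians was 1.11 above that of the 9 others. That distance was 1.77 without CC9mus replicate 1, 0.46 with all arrays brought to an equal spread and 0.89 within the later scan period. The last of these still cannot be told apart from scan day and slide.

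Of the 11 probes that rose, 10 lay in Pcdha, at the loci low in the divergent lines: 1 in alpha-5, 2 in alpha-13, 4 in alpha-15 and 3 in alpha-16. The remaining rise was in gamma-11 and the only fall in gamma-12. The 4 probes described one by one below were picked because they passed limma and their 3 CC9mus arrays lay beyond the 9 others. Their lack of overlap restates that choice. The largest measured rise was at the last probe of alpha-13 (chr18:37180424-37180478). It was at 0.75, 3.09 and 2.45 on the CC9mus arrays, −1.92, −1.29 and −0.69 in CC9spretus, −1.26, −1.72 and −0.50 in CC9dunni and −1.53, −2.47 and −0.73 in CC9pahari. All 3 CC9mus arrays were above 0 and all 9 others below it, a difference of 3.44 ± 0.51 (SE, limma adjusted p = 0.0405). The IP signal was well above background on all 3 CC9mus arrays and on only 2 of the 9 others, so the low side is poorly measured. Raising the dim IP signals of the other lines to the lowest signal of their array that was well above background gave a difference of 2.36, smaller than the 2.61 at the last probe of alpha-15, which was measured on all 12 arrays.

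The first probe of alpha-5 (chr18:37120061-37120112) was at −0.15, 1.36 and 3.03 on the CC9mus arrays and at −2.74 to −0.41 on the 9 others, with a median of −1.42. By the choice of probes the groups did not overlap, and the difference was 2.85 ± 0.60 (SE, limma adjusted p = 0.0413). All 3 CC9mus arrays and 4 of the 9 others had an IP signal well above background, and the difference was 2.45 with the dim signals raised in the same way. The alpha-16 probe at chr18:37303893-37303937 was at 0.40, 0.69 and 1.68 on the CC9mus arrays and at −1.99 to −0.54 on the others, again without overlap by that choice. The difference was 2.18 ± 0.39 (SE, limma adjusted p = 0.0405), with the IP signal well above background on 2 of 3 CC9mus and 2 of 9 other arrays, and it was 1.28 with the dim signals of the others raised.

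The fall was at the gamma-12 probe chr18:37966191-37966235, where the IP signal was well above background on all 12 arrays. It was at −0.714, −0.626 and −1.003 on the CC9mus arrays, 0.69, 0.38 and −0.07 in CC9spretus, 0.40, 0.53 and −0.07 in CC9dunni and 0.34, 0.56 and 0.01 in CC9pahari. By the choice of probes the groups did not overlap, and the difference was −1.09 ± 0.26 (SE, limma adjusted p = 0.0439). Of the 11 probes that rose, 4 had an IP signal well above background on all 12 arrays, 3 of them in alpha-15 and 1 in alpha-16.

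**Figure D4:**
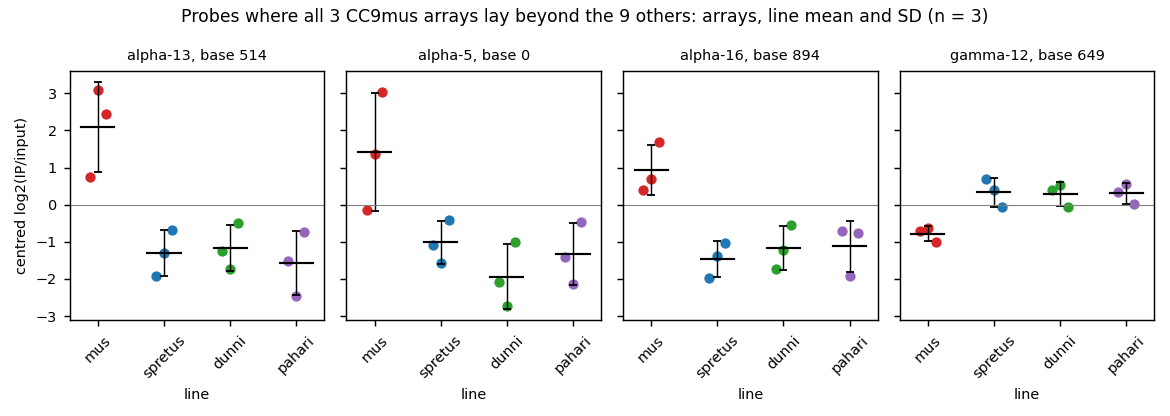
Centred log2(IP/input) on each array (points, n = 3 per line) with line mean (bar) and SD (whisker) at the 4 probes that passed limma in CC9mus and whose 3 CC9mus arrays lay beyond the 9 others, 1 per locus, titled by locus and by bases from the start of the locus. At the first 3 the CC9mus means are 2.10, 1.42 and 0.92 and all other arrays are below 0; at the gamma-12 probe CC9mus is at −0.78 and the other lines are near 0.3.

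Over the 100 probes, all 3 CC9mus arrays were above all 9 others at 6 and below them at 1. Over the whole array this held for 3.78% and 3.36% of the probes measured on all 12 arrays. The 6 were 1 probe of alpha-5, 2 of alpha-13, 1 of alpha-15 and 2 of alpha-16, and 5 of them were among the 11 that passed limma. No protocadherin locus passed when the probes of each locus were averaged and fitted over 14586 loci, nor did any locus of the array (0.0% higher and 0.0% lower, smallest adjusted p = 0.0515). At an unadjusted p under 0.05, 10 of the 30 loci were higher in CC9mus and 1, alpha-8, lower, against 15.1% and 17.2% of all loci. The limma adjusted p was 0.0515 for alpha-5 (difference 2.30 ± 0.54, SE), alpha-13 (2.10 ± 0.50) and alpha-15 (1.65 ± 0.38), and 0.0521 for alpha-16 (0.83 ± 0.21).

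These calls were close to the threshold. Of the 12 probes, none passed when CC9mus replicate 2 or 3 or any 1 array of a divergent line was left out, and 62 of the 100 passed without CC9mus replicate 1, when 40.4% of all probes did. In the fits in which none passed, at most 0.14% of all probes did, and with a divergent array left out the median difference of the 100 probes stayed at 0.68 to 0.91. None passed within the later scan period, where the difference at the 4 probes described above was 2.74, 2.04, 1.70 and −0.74, in the same directions. With the arrays brought to an equal spread 14 passed, 11 higher and 3 lower, when 12.1% of all probes did, and 10 of them were among the 12. With the scan period as a block on top of the equal spread 27 passed, when 21.4% of all probes did, and the direction turned, with 7 higher, 20 lower and a median difference over the 100 probes of −0.34, so the excess of rises over falls did not hold there. With the normexp background correction none passed, and the differences at the 4 probes were 0.76, 0.999, 0.49 and −1.16.

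Within the last 2 Pcdha loci, CC9mus lay farther above the other lines in the distal probes than in the proximal ones. In alpha-16 the proximal 5 probes had a mean of −0.32 in CC9mus and −0.28 on the 9 other arrays, whereas the distal 5 had means of 1.39 and −0.37. The distal probes exceeded the proximal ones by 1.71 ± 0.94 in CC9mus (SD, n = 3; lowest array 0.69) and by −0.09 ± 0.38 on the others (SD, n = 9; highest array 0.20), so the arrays did not overlap. At 3 of these distal 5 probes the IP signal was well above background on only 2, 4 and 3 of the 9 other arrays, and their differences of 2.18, 2.12 and 2.02 became 1.28, 1.55 and 0.99 with dim signals raised. In alpha-15 all 6 probes were higher in CC9mus, with proximal means of 0.86 and −0.10 and distal means of 2.15 and −0.19. There the distal 3 exceeded the proximal 3 by 1.29 ± 0.79 in CC9mus and by −0.09 ± 0.45 on the others, and the ranges 0.38 to 1.83 and −0.59 to 0.70 overlapped. These splits were chosen after the values were seen and were not tested.

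Gamma-12 changed sign along its length in CC9mus. Of its 14 probes, 8 were lower in CC9mus than in the other lines and 6 higher. The differences ran from −1.15, at a probe with the IP signal well above background on 4 of 12 arrays, to 2.03. The proximal 7 had a mean of −1.38 in CC9mus and −0.58 on the others, and the distal 7 means of 0.68 and −0.06. The low proximal mean of CC9mus rests partly on dim IP. At the proximal probes starting at 37965542 and 37965732 only 1 CC9mus array cleared the background well. At those starting at 37965856 and 37966343, and at 37966422 and 37966514 in the distal part, 2 of the 3 did. At the rest all 3 did. This split, like those of alpha-15 and alpha-16, was made with the values known and was not tested. Distal minus proximal was 2.07 ± 1.26 in CC9mus (SD, n = 3), 0.86 ± 0.08 in CC9spretus, 0.45 ± 0.24 in CC9dunni and 0.25 ± 0.42 in CC9pahari. CC9mus replicate 1, at 0.66, lay inside the range of the others, −0.04 to 0.95, and replicates 2 and 3 lay above it at 2.45 and 3.09. The average over the locus hid this, with a difference of −0.03 ± 0.16 (SE, limma adjusted p = 0.904).

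In gamma-11 the measured difference of CC9mus from the mean of the other lines was above 0 at all 12 probes, and that of the locus was 1.33, or 0.59 to 2.28 with 1 array left out and −0.55 with the scan period block and equal spread. At 2 of the 12 the IP signal was well above background on only 4 arrays. One of these, chr18:37928172-37928231, was the probe that passed, with 1 of the 9 other arrays well above background, and at the other and 1 further probe the CC9spretus mean was above that of CC9mus. The distal end was on average the lower one in every line. There distal minus proximal was −0.26 ± 0.33 in CC9mus, −1.03 ± 0.16 in CC9spretus, −0.18 ± 0.12 in CC9dunni and −0.20 ± 0.33 in CC9pahari (SD, n = 3). In the proximal part CC9spretus was at 2.21 against 2.57 in CC9mus, or 3.57 without CC9mus replicate 1, and in the distal part at 1.18 against 2.31 in CC9mus, 0.86 in CC9dunni and 0.58 in CC9pahari.

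**Figure D5:**
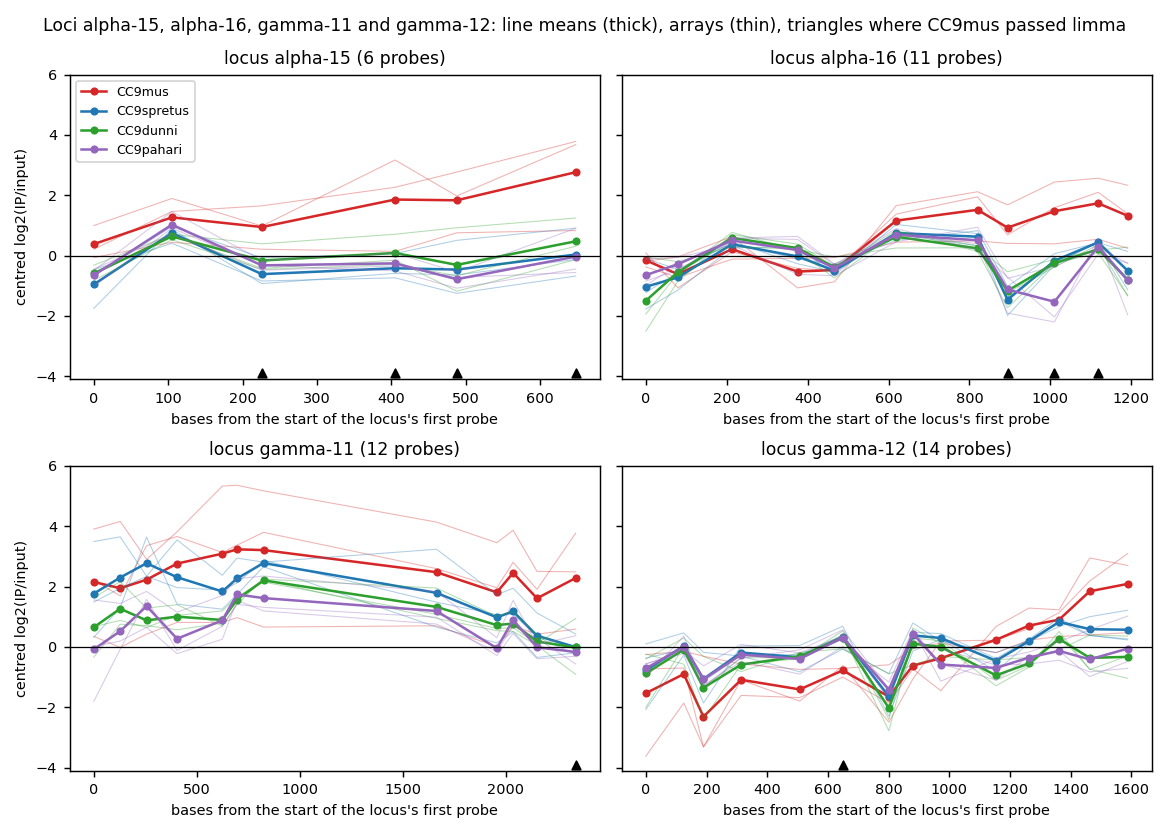
Centred log2(IP/input) of each probe against its distance in bases from the first probe of the locus, for alpha-15, alpha-16, gamma-11 and gamma-12; thick lines with points are line means, thin lines are the 3 arrays of each line, and triangles mark probes that passed limma in CC9mus against the mean of the other lines. CC9mus departs upwards in the distal part of alpha-15, alpha-16 and gamma-12, is lower than the others in the proximal part of gamma-12, and is above the mean of the other lines at every probe of gamma-11.

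No protocadherin probe passed for the divergent lines. Against the mean of the other 3 lines, the counts were 0 of 100 for CC9spretus, CC9dunni and CC9pahari in limma, when 0.00113%, 0.0% and 0.0% of all probes passed. At an unadjusted p under 0.05 there were 10, 7 and 11 protocadherin probes, of which 6, 0 and 1 were higher, against 1.97%, 4.85% and 3.23% of all probes in either direction. The median differences were −0.01, −0.29 and −0.54, and 79 of the 100 probes were lower in CC9pahari than in the mean of the others, whereas 59.6% of all probes were higher. With 1 array left out the medians were −0.24 to 0.23 in CC9spretus, −0.47 to −0.17 in CC9dunni and −0.76 to −0.37 in CC9pahari, and with equal spread that of CC9dunni was −0.002 with 50 of 100 probes above 0. The CC9pahari median was −0.40 with equal spread and −0.15 with normexp, with 26 and 34 probes above 0. With the scan period block and equal spread the medians were 0.29, 0.066 and −0.16 in CC9spretus, CC9dunni and CC9pahari, with 68, 55 and 35 probes above 0. These contrasts share arrays, and the CC9mus arrays enter each of them. Directly against CC9mus, 0 of 100 passed for each divergent line, when 0.0%, 0.0% and 0.0% of all probes did, with 29, 33 and 38 at an unadjusted p under 0.05 for CC9spretus, CC9dunni and CC9pahari, against 17.1%, 23.4% and 20.7% of all probes.

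The input channel alone varied little over the clusters. The median input signal of the 100 probes, relative to each probe's mean over the arrays, lay between −0.09 and 0.11 on the log2 scale on the 12 arrays, and that of the other probes of chromosome 18 between −0.06 and 0.09. Within clusters it ranged more widely. For the Pcdha probes it ran from −0.085 on CC9dunni replicate 3 to 0.15 on CC9mus replicate 2. For the Pcdhg probes it ran from −0.185 on CC9spretus replicate 3 to 0.25 on CC9spretus replicate 1. For the 2 Pcdhb probes it ranged from −1.08 on CC9pahari replicate 3 to 0.99 on CC9mus replicate 2, so the ratios of that cluster also carry a spread of the input.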

How the data were processed

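MeDIP was measured on 12 Agilent 2-colour mouse CpG island arrays of 88737 probes and 5950 control spots, 3 for each of 4 ES cell lines grouped by the labels. Spot values were extracted by the authors from the scanned images in Agilent Feature Extraction (11.0.1.1 in the file headers, 11.0.1.0 in the submitters' processing notes), and the deposited processed signals are intensities after background subtraction and a linear dye normalisation. The deposited log10 ratio of IP over input was used as an alternative only. No dyes were swapped, so a dye bias of a probe cannot be told apart from its ratio.

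The log2(IP/input) ratios were taken from these intensities and centred on the median of each array, with outlier-marked spots left out and no loess. Differences were fitted with limma 3.58.1 (R 4.3.3; lmFit and eBayes on 4 line means, 12 arrays, 8 residual degrees of freedom) over all probes, and over loci as means of their probes, with Benjamini-Hochberg adjustment over the whole table and a threshold of 0.05. Of 7 contrasts, 4 set a line against the mean of the other 3 and 3 set a divergent line against CC9mus. The fit was tested on simulated data. Python 3.11.15, numpy 2.4.6, pandas 2.3.3 and matplotlib 3.10.9 were used.

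Probes and loci described in full were, in each cluster, the 3 highest and 3 lowest loci of at least 3 probes by the mean of the line means, and, for each line, up to 3 members per direction past the adjusted p whose 3 arrays lay beyond the 9 others, 1 per locus. The members and lists were chosen with earlier results of these data known. Positions are mm9. Gene names from the RefSeq table were used for order only, and sequences of the region are not reported here. Precision is limited by the number of arrays. The alternatives tried were uncentred ratios, normexp background correction (offset 50), the deposited ratios, equal spread of the arrays, probes with dim input left out, outlier spots kept, each array left out, blocks for replicate number, slide and scan period, gaps of 500 and 2000 bases, and another start of the Pcdhg cluster. The scan period with equal spread and the later scan period alone were added after the data were examined.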

Additional observations from a re-analysis of the deposited data

How the results depend on the processing

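Counts of hypermethylated protocadherin probes moved with the background correction and the spread of the arrays. With normexp they were 7, 5, 3 and 2 in CC9mus, CC9spretus, CC9dunni and CC9pahari, against 2.32%, 2.77%, 2.13% and 2.17% of all probes. An equal spread gave 14, 28, 29 and 15, against 3.74%, 5.75%, 7.65% and 5.8%. With every array past the threshold they were 2, 12 and 6 in CC9mus, CC9spretus and CC9pahari. Leaving out 1 array gave 19 to 58, 15 to 31, 15 to 20 and 7 to 16. The 3 hypomethylated probes became 5 without centring, 0 with normexp, 0 with every array past the threshold and 1 to 7 with 1 array left out. The 12 probes that passed in CC9mus became 0 with normexp, 0 with the slide as a random block, 0 with the scan period as a block, 0 within the later scan period and 27 (7 higher, 20 lower) with the scan period block and equal spread, the setting that also gave 8 in CC9dunni (1.92% of all probes). Leaving out 1 array gave 0 to 62, and 0 for the other lines. Loci that passed in CC9mus, 0 in the analysis reported, became 4 without centring (7.9% of all loci), 4 with equal spread (13.8%) and 3 with dim input left out (4.86%), all higher. They became 9 with the scan period block and equal spread (30.0%), 1 higher and 8 lower, with a median difference over the 30 loci of −0.43. Leaving out 1 array gave 0 to 17, the 17, all higher, without CC9mus replicate 1 (50.3%). The cause was not tested. The replicate numbers share no stated origin, and arrays of one number correlated in their deviations by −0.39 to 0.54, with 5 of 12 arrays closest to one of their own number; with the replicate block 24 probes (8.42% of all) and 6 loci (7.95% of all) passed in CC9mus. The distance of the CC9mus array medians from the others kept its sign where it was recomputed, at 0.46 to 1.18 with all arrays and no block, 0.89 within the later scan period and 0.67 to 1.77 with 1 array left out. Cluster medians moved with normexp, in Pcdha to 0.23 in CC9spretus, 0.22 in CC9dunni and 0.25 in CC9pahari, in Pcdhb to 0.57 in CC9dunni and in Pcdhg to 0.22 in CC9spretus. With equal spread the Pcdha median was 1.07 in CC9dunni and 1.16 in CC9mus, and the Pcdhg median of CC9dunni was 0.046 without centring and 0.33 without gamma-1. With the scan period block and equal spread the difference at alpha-6 reversed to −1.76, those at alpha-1 and alpha-3 became −2.59 and −2.04 and passed, and those at gamma-8, gamma-9 and gamma-11, which pass in neither fit, turned to −1.13, −0.025 and −0.55. The cause of these moves was not tested.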
